A study of Canis lupus familiaris and Eptesicus fuscus and Equus caballus with 6 samples.

Results

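The small RNA library of adult horse testis listed 35830283 reads of 3971863 distinct sequences, out of 7545354 distinct sequences summed over the 3 small RNA libraries of a series on dog, horse and big brown bat testis. It was taken by its sample title, and every listed sequence with its read count was used, with identical sequences summed. The tissue was snap-frozen testis of an adult horse (Equus caballus), total RNA was taken up in TRIzol, and its small RNAs were read from a single end for 50 nt. The labels give neither the number of animals nor their breed or age in years. The study asked how piRNAs target transposable elements in species that differ in element activity. With 1 library and no replicate, no test was possible, and the intervals below are exact (Clopper-Pearson) 95% binomial intervals that cover counting error only. Reads were PCR copies without molecular identifiers. A count of 3 reads, the limit that a count of 0 allows, corresponds to 8.37e-06% of the library.

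piRNAs are the small RNAs that PIWI proteins carry in germ cells of animals, where they guide the silencing of transposable elements. Primary piRNAs are cut from long precursor transcripts, and most begin with U. Their 5′ end is set by the cut that frees it, while the 3′ end is trimmed by an exonuclease and then methylated, so that several lengths can share a 5′ end. In the ping-pong cycle a piRNA directs the slicing of a complementary transcript, and the product becomes a piRNA whose 5′ end overlaps that of its guide by 10 nt. A guide that begins with U then faces a partner with A at position 10. In the testis of adult mice, most piRNAs are pachytene piRNAs, made from a limited number of long precursors with few ping-pong partners.

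The sequences below show the 5′ ends on which the counts of the library rest. They were oriented by their length variants as described further on, and each line gives the most read sequence of an end in RNA sense with T written for U. Capitals mark the bases after position 24, where the length variants of an end stop. Of the 10, 2 are fragments of known non-coding RNAs, named here from their sequence after their values were seen, since no table of horse RNAs was used.
End 1: tgagaagttcgttaggatgtcgcaCTCCT
End 2: taagaccagacttcaaacccactcAAGAGT
End 3 (5′ fragment of tRNA-Gly-GCC): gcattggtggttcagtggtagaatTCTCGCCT
End 4: tgggcaagtttcataaactactctGTGCCT
End 5: tatgaagtaagggaaagctttctgAAGCCT
End 6: acagaccggaatacgagaacctagCAGAA
End 7 (5′ fragment of Y4 RNA): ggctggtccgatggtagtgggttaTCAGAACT
End 8: tctctgtgagtgttcctctttgggTCCTAA
End 9: taagtctgaaatgtgcaccttctgAGAGAA
End 10: tgacctcgagacaccctgactttgGCC

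A second set of sequences carries the ping-pong pairs. Each line below gives the most read sequence of a start, and capitals mark its first 10 nt, which are the reverse complement of the first 10 nt of its partner. These are the 5 pairs of starts that held most of the 10-nt pairs in the library.
Pair 1, first side: TTCTAGTTGTggcatgtgggacgctgcct
Pair 1, second side: ACAACTAGAAgaacccacagcgaagaatac
Pair 2, first side: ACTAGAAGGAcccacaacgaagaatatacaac
Pair 2, second side: TCCTTCTAGTtgtggcatgtgggacgcc
Pair 3, first side: TAAGTTCGCAcgttccgcttctcggcggcc
Pair 3, second side: TGCGAACTTAactgctgcgccactgggcc
Pair 4, first side: TAGTTGTATAttcttcgttgtgggtcc
Pair 4, second side: TATACAACTAtgtaccggggggctttggga
Pair 5, first side: AGGATTCGAAccaacgaaacactgggcc
Pair 5, second side: TTCGAATCCTgggtgcggacatggcactg

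The label of a testis small RNA fraction could be set only against the length and the first base of the reads, since a list of small RNAs holds no marker genes. All listed sequences were 24 to 32 nt long, so shorter and longer RNA was not analysed here. Reads of 29 to 31 nt, a part of the size range of mammalian testis piRNAs, made up 68.9% of all reads. The length held by most reads was 30 nt, with 30.8% of them (30.82 to 30.85%), followed by 29 nt with 21.1% and 31 nt with 16.9%. Reads of 24 and 25 nt made up 1.45% and 2.72%. Distinct sequences were spread more evenly over the lengths than reads were, with 18.2% of them at 30 nt, 13.3% at 27 nt and 11.4% at 26 nt. A sequence of 30 nt had 15.3 reads on average, a sequence of 25 nt 3.52. All further values are for the 26 to 32 nt class, which held 34335975 reads (95.8%) of 3560892 distinct sequences.

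The abundance spectrum was broad, with many sequences seen once and a few seen at least 100000 times. Of the distinct sequences, 2179816 (61.2%) had a single read and together held 6.35% of the reads. At the other extreme, 8 sequences of at least 100000 reads held 4.06%. Most reads lay between, with 24.3% in the 31453 sequences of 100 to 999 reads and 23.4% in the 3305 sequences of 1000 to 9999 reads. The 10 most read sequences held 4.63% of the reads (4.62 to 4.63%), the 1000 most read 29.1% (29.04 to 29.07%) and the 100000 most read 75.4%. Ordered by reads, 610 sequences held 25% of the reads, 8172 held 50% and 775305 held 90%. The last of the 8172 sequences had 452 reads.

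**Figure D1:**
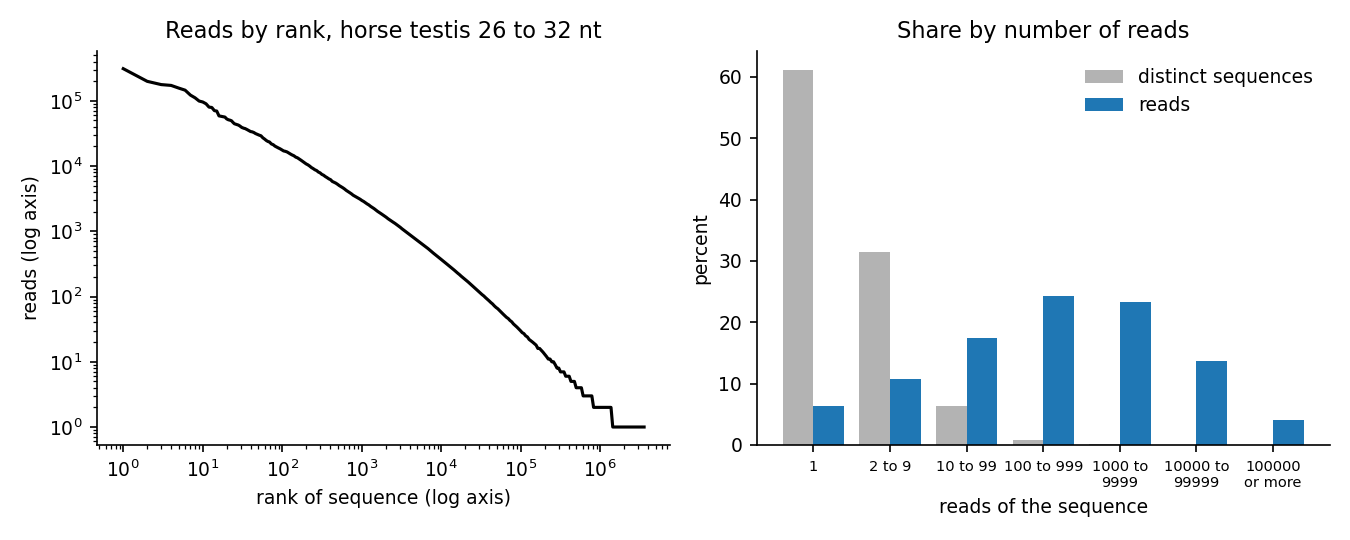
Left: reads of a sequence (log axis) by its rank (log axis) for the 26 to 32 nt sequences of the horse testis library. Right: percent of distinct sequences (grey) and of reads (blue) by the number of reads of the sequence. Single-read sequences were 61.2% of the sequences and 6.35% of the reads, while the 31453 sequences of 100 to 999 reads held 24.3% of the reads.

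The make-up of the sequences moved with their abundance. Of single-read sequences 48.9% were 29 to 31 nt long, against 62.7% of those with 10 to 99 reads and 86.8% of those with 10000 to 99999 reads. Among sequences whose orientation could be read, U stood first in 42.6% of single-read sequences and in 59.8% of those with 2 to 9 reads. This share was 79.7% at 100 to 999 reads and 80.7% at 1000 to 9999 reads. It was 77.9% at 10000 to 99999 reads (131 sequences) and 71.4% of the 7 oriented sequences of 100000 reads or more. The only ones of these 7 without first-base U were the 32 nt and 30 nt forms of the tRNA-Gly-GCC fragment, with 156384 and 122226 reads. The share of sequences that could be oriented also rose with reads, from 7.53% of single-read sequences to 60.7% at 1000 to 9999 reads, so the first-base shares of rare sequences rest on a smaller part of them.

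Sequences were not all listed in RNA sense. The sequence with most reads in the class was listed as actcttgagtgggtttgaagtctggtctta, with 310724 reads (0.905%). It is the reverse complement of the leading sequence of end 2. Its length variants shared its last 24 nt for 48616 reads and its first 24 nt for 283 reads. The next, tgagaagttcgttaggatgtcgcactcct with 198768 reads, and the third, the same sequence with a further g at its 3′ end and 177129 reads, went the other way. Of the variants of the second listed sequence, 241597 reads shared its first 24 nt and 1014 its last 24 nt. The fourth listed sequence, with 172044 reads, could not be oriented, since its variants shared the first 24 nt for 37759 reads and the last 24 nt for 52911 reads.

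Grouped as listed, the library looked alike from either end. The sequences fell into 2486723 groups by their first 24 nt and 2471586 groups by their last 24 nt. A single sequence made up 76.6% of the former and 76.4% of the latter. Groups of at least 100 reads numbered 33781 and 33797, held 73.0% and 73.3% of the reads, and had a median of 5 sequences in both cases. No sequence of at least 2 reads, of 1498302, was also listed as its own reverse complement.

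To read the RNA strand, sequences were joined in steps, each to the most read sequence with the same first or the same last 24 nt. A linked group was oriented where the variants of its leading sequence had at least 10 reads and at least 80% of these shared the same end. That end was taken as the 5′ end, so a fixed 5′ end and a variable 3′ end are set by this rule and are not a result. The rule uses no base identity. It oriented 51.5% of the reads and 511421 sequences (14.4%), and 51.5% of the oriented reads had been listed reversed. Variants at both ends left 36.2% of the reads without orientation, and fewer than 10 variant reads left 12.3%. Among 15862 linked groups with at least 100 variant reads, the share of variant reads that kept the first 24 nt was 0 to 10% in 19.7% of groups and 90 to 100% in 17.7%. It lay at 40 to 60% in 14.5% of groups, so the groups gathered at both extremes with many in between.

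**Figure D2:**
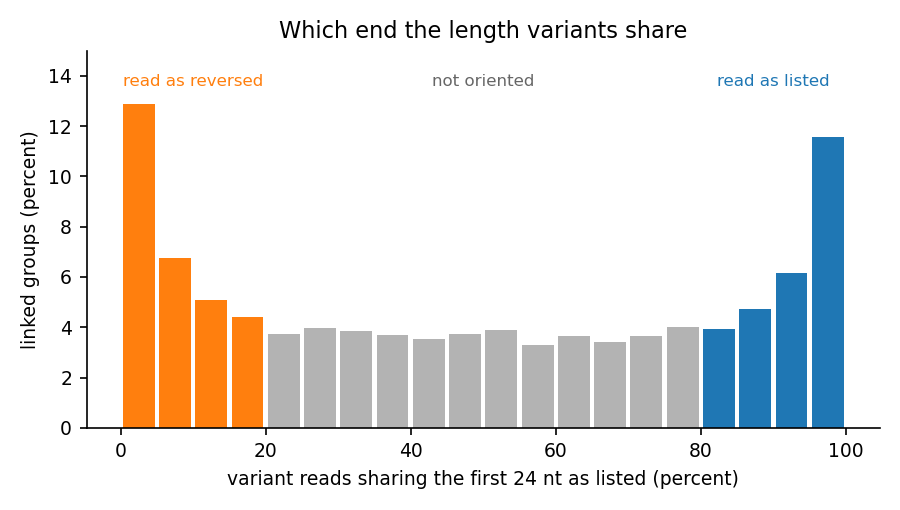
Percent of the 15862 linked groups with at least 100 variant reads (y axis) by the percent of variant reads that share the first 24 nt as listed (x axis). Groups under 20% were read as reversed (orange), groups over 80% as listed (blue), and the rest were not oriented (grey); 19.7% of groups lay at 0 to 10%, 17.7% at 90 to 100% and 14.5% at 40 to 60%.

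After orientation, reads were concentrated on few 5′ ends, each with several 3′ ends. There were 184436 oriented 5′ ends, of which 17183 had at least 100 reads and held 87.7% of the oriented reads. The 10 leading ends held 11.1% of the oriented reads, the 100 leading ends 25.9% and the 1000 leading ends 52.3%. An end of at least 100 reads had a median of 6 sequences, at most 162, and a median of 6 of the 7 possible lengths. All 7 lengths were present at 33.6% of these ends.

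At most ends, a single length held more reads than any other but not nearly all reads. The most read length of an end held 61.0% of the reads over all ends of at least 100 reads, and 55.4% at the median end. Only 642 ends (3.74%) had at least 90% of their reads at 1 length, while 2748 ends (16.0%) had under 40% at their most read length. The second length was a neighbour of the first at 68.0% of the ends with 2 or more lengths. It was 1 nt shorter at 37.3% and 1 nt longer at 30.7%. By most read length, 36.9% of the ends were 30 nt ends, 23.3% were 29 nt ends and 18.6% were 31 nt ends.

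The 10 leading ends ranged from nearly uniform to widely spread in length. End 1, with 440365 reads (2.49% of oriented reads), was split between 29 nt (198768 reads, 45.1%) and 30 nt (177129 reads, 40.2%), with 56332 reads (12.8%) at 28 nt. Its longest form, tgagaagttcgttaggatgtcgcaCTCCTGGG of 32 nt, had 206 reads. End 2, with 359340 reads, held 310724 (86.5%) at 30 nt, 31750 (8.84%) at 31 nt and 14481 (4.03%) at 29 nt. The first end thus had a pair of nearly equal lengths and the second a single one.

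End 3, named here the tRNA-Gly-GCC fragment, had 333307 reads in a different pattern. Its longest listed form stops before the anticodon, so the anticodon in its name was not read from these sequences. Fragments of this kind arise when an endonuclease cuts a mature tRNA in its anticodon loop. It held 156384 reads (46.9%) at 32 nt, 122226 (36.7%) at 30 nt and 52785 (15.8%) at 31 nt, and 890 reads (0.267%) at 29 nt. End 7, the fragment of Y4 RNA, a small cytoplasmic RNA bound by the Ro protein, held 88.1% of its 108820 reads at 32 nt. As 32 nt is the longest listed length, longer forms of these RNAs were not analysed here.

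Among the remaining leading ends, end 5 was the most uniform, with 145470 of its 151806 reads (95.8%) at 30 nt. End 4 held 64.7% of 171702 reads at 30 nt and 34.2% at 29 nt. End 8 held 69.9% of 101149 reads at 30 nt, with 15.2% at 29 nt. End 9, with 80382 reads, was split like end 1, with 54.0% at 30 nt and 43.4% at 29 nt. End 6, with 134862 reads, was spread over 29 nt (38.0%), 30 nt (32.99%) and 28 nt (26820 reads). End 10, with 76580 reads, was spread most widely in length, with 38.0% at 27 nt, 17.4% at 30 nt and 43.5% at 29 to 31 nt in all.

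**Figure D3:**
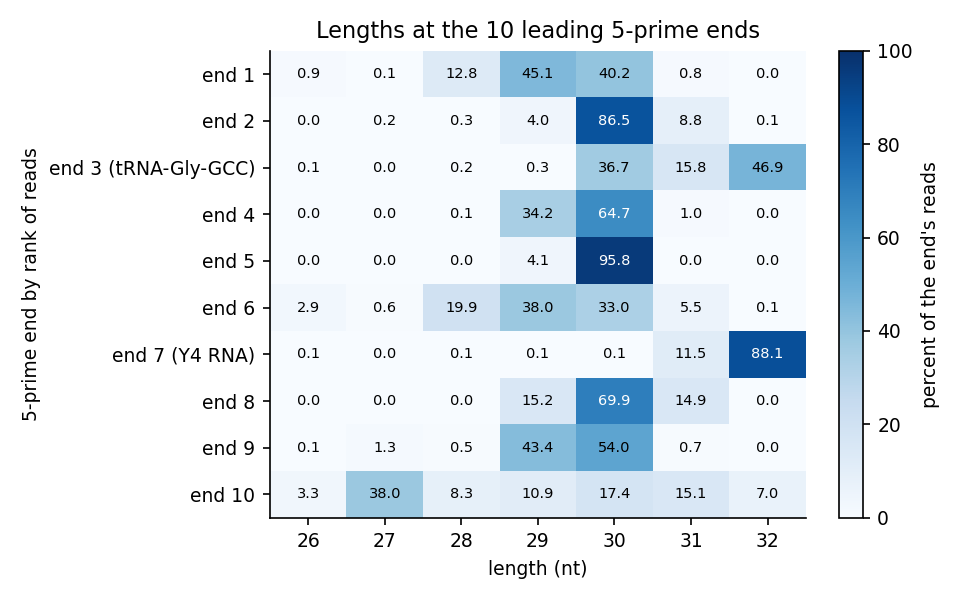
Percent of the reads of each of the 10 leading 5′ ends (rows, by rank of reads) at each length from 26 to 32 nt (columns). The most read length held from 38.0% (ends 6 and 10) to 95.8% (end 5), and the 2 known RNA fragments, ends 3 and 7, had most reads at 32 nt.

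The length variants of an end rarely differed in the bases after position 24. For each end a template was made from its leading sequence, extended by its most read longer forms, and 99.3% of the reads at ends of at least 100 reads were prefixes of that template. Much of this is set by construction, since variants share their first 24 nt by the grouping and the leading sequences alone held 60.7% of the reads. Of the 3563906 reads shorter than the leading sequence of their end, 99.3% were prefixes of it. Over all lengths at these ends, 9451 sequences (8.75% of the sequences) with 105817 reads were not prefixes of their template. Of these, 2543 sequences with 27058 reads differed from the template in their last base alone. That last base was U in 38.6% of these reads and A nearly as often, against 18.8% for C and 6.56% for G. By sequences, A held 36.14%, U 36.06%, C 14.1% and G 13.7%. The template base at the same place was most often C (35.3% of the sequences), with G in 24.3% and U in 21.7%. The last base differs from it by definition, so the shares of bases common in the template are lowered in advance. Sequencing errors were not separated from bases added to the RNA.

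The base at the 3′ end was not evenly used. The last base of the leading sequence was C in 34.5% of the 17183 ends and G in 12.8%, with A and U at 26.3% and 26.4%. Positions 12 to 24 of the same ends held C in 24.1% and G in 23.6%. The base that followed the leading sequence in its template, known for 15098 ends, was A in 28.9% and C in 21.6%. The low share of G at the last base was found at each leading length from 28 to 31 nt, between 6.47% at 28 nt and 15.7% at 29 nt, and the share of C there was between 32.02% and 43.2%.

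Neighbouring oriented 5′ ends on the same strand were most often 1 nt apart, a distance that the orientation rule can favour. Among the ends of at least 100 reads, 1352 pairs began 1 nt apart, 978 pairs 2 nt apart and 977 pairs 3 nt apart. The number declined to 367 pairs at 10 nt, with small rises on the way, as at 5 nt (598 pairs, after 590 at 4 nt). A nearer neighbour is recognised by a longer shared run, of 23 nt at 1 nt apart and 14 nt at 10 nt apart. Chance matches would therefore favour the longer distances. The orientation rule can favour the shorter ones, since it links sequences with the same last bases and orients a linked group as a whole. Ends a few nt apart can thus be oriented together and onto the same strand. How much of the decline with distance comes from this rule was not tested. As an example, end 6 overlapped in sequence with 3 more of the 100 leading ends. The end tacagaccggaatacgagaacctaGCAGAA, with 43360 reads, begins 1 nt upstream of it, and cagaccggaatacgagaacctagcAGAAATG, with 20415 reads, 1 nt downstream. The end ranked 12, tgtacagaccggaatacgagaaccTAGCA, with 63665 reads, begins 3 nt upstream. The 3 lead at lengths of 30, 31 and 29 nt, and whether the ends come from the same precursor was not analysed here.

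U at the first position, the mark of primary piRNAs, was not used by the orientation rule and could therefore be read from the oriented sequences. It stood first in 77.1% of the oriented reads (77.13 to 77.17%). As listed, the first base was U in 48.1% of all reads and in 45.2% of the reads that could not be oriented. Neither value was taken in RNA sense, so neither gives the share of U at the RNA 5′ end. In the oriented reads G followed with 10.6%, A with 6.83% and C with 5.41%. Without the 7 ends of known non-coding RNAs described below, 5 of which do not begin with U, the share of U was 79.6%. By ends of at least 100 reads it was 77.9% (77.2 to 78.5%, n = 17183), by distinct sequences 58.0%, and with each of the 184436 ends counted once 43.3%. The last value gives an end of few reads the weight of end 1, and rare sequences had the lower share of U.

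The share of first-base U varied with length. In reads it was lowest at 32 nt (55.7%) and highest at 29 nt (81.1%), with 77.1% at 26 nt and 79.0% at 30 nt. By distinct sequences it was highest at 32 nt (60.6%) and lowest at 30 nt (55.5%), so the low value at 32 nt was one of reads and not of sequences. The tRNA-Gly-GCC and Y4 fragments, which begin with G, had 156384 and 95866 reads at 32 nt, of 1246233 oriented reads of that length. Ends whose most read length was 32 nt began with U in 72.0%, and those with 28 nt in 79.5%.

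Of the 100 leading ends, 25 did not begin with U. Of these 25, 5 were recognised as known RNAs, and so were 2 leading ends that begin with U. Among the 7 were the tRNA-Gly-GCC and Y4 fragments and the 5′ fragments of tRNA-His and tRNA-Lys. Together the 7 held 610230 reads, 3.45% of the oriented reads. The recognition was by eye and may have missed others. The tRNA-His fragment, gccgtgatcgtatagtggttagtaCTCTGC, had 58761 reads with 72.3% of them at 30 nt, and the tRNA-Lys fragment, gcccggctagctcagtcggtagagCATGG, had 21982 reads with 65.4% at 29 nt. An end with U was the tRNA-His fragment with 1 more base at its 5′ end, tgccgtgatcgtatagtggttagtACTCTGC, with 22084 reads. The most read end without U and without such a name was end 6, which begins with A.

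Beyond the first position, the oriented reads departed from an even use of bases near their 5′ end. U was rarest at position 2, with 13.2% of the reads, where A held 35.7% and G 29.8%. The mean share of U over positions 2 to 26 was 24.7%. A was most frequent at position 5, with 45.3% of the reads, 41.2% of the ends of at least 100 reads and 34.3% of the distinct sequences. Position 5 therefore held more A than position 10, the place marked by ping-pong, where the shares were 32.04%, 31.01% and 31.4%. In oriented reads positions 2 (35.7%) and 3 (32.5%) also held more A than position 10.

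**Figure D4:**
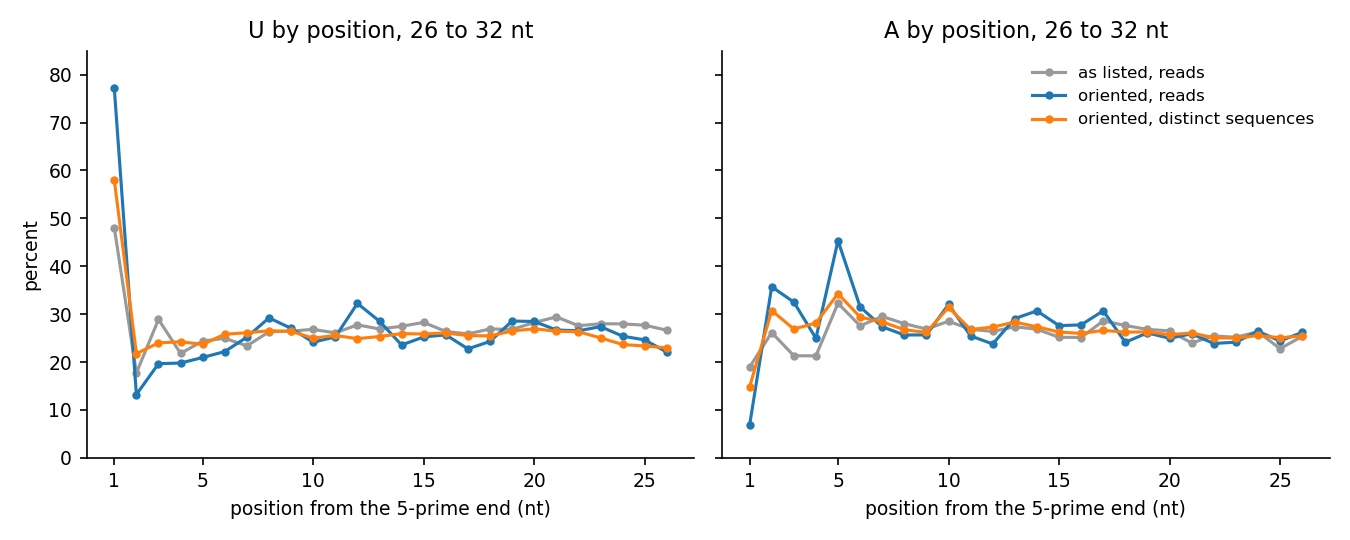
Percent of U (left) and of A (right) by position from the 5′ end in 26 to 32 nt sequences, for reads as listed (grey), oriented reads (blue) and oriented distinct sequences (orange). U at position 1 rose from 48.1% of reads as listed to 77.1% of oriented reads, and A in oriented reads was highest at position 5 (45.3%), followed by positions 2 (35.7%), 3 (32.5%) and 10 (32.04%).

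A at position 10, the mark of the ping-pong partner, was above the mean of its neighbours in distinct sequences, though over all of them position 5 held more. Of the 214949 oriented distinct sequences with a first base other than U, 33.8% held A at position 10 (33.6 to 34.0%). The mean over positions 5 to 9 and 11 to 15, the neighbours, was 28.4%. The interval takes sequences as independent, though variants of an end share this base, so it is too narrow. Among the 296472 that began with U, A at position 10 was 29.7%, against a mean of 27.9%, and below position 5 (36.3%) and position 6 (30.05%). With each end counted once, the sequences without first-base U held A at position 10 in 30.9% (30.7 to 31.2%, n = 104583), against a mean of 28.2% at the neighbours. In this count position 2 held more A (31.4%) than position 10. Without the sequences of the 10 leading pairs of starts described next, the share among distinct sequences without first-base U was 33.2%.

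Complementary sequences overlapped by 10 nt at their 5′ ends more often than by any other length from 11 to 24 nt. Each overlap was judged on 10 nt of complementarity among the oriented distinct sequences. The number of pairs at 10 nt was 4.88 times the median at 11 to 24 nt, and the next highest was 11 nt, at 2.28 times. The overlap of 3′ ends, counted in the same way, gave 1.01. As the orientation rule calls the variable end the 3′ end, a sharp overlap there was unlikely in advance. The value is therefore no independent control. The ratio was 4.59 between sequences listed in RNA sense and sequences listed reversed. It was 5.10 among the former and 5.19 among the latter, so the excess was present whichever way the sequences had been listed.

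The excess rested on few starts and on the many sequences that share each of them, variants in length and in bases alike. There were 2118530 pairs of sequences at 10 nt, from 19869 pairs of complementary starts. The leading pair of starts held 30.04% of the pairs, the 5 leading pairs 55.8%, the 10 leading pairs 67.7% and the 1000 leading pairs 90.5%. The first 4 pairs of starts held 50% of the pairs. Without the leading pair of starts the ratio was 3.52, and without the 10 leading pairs it was 1.89. Since the count of 10-nt pairs chose these starts, a lower ratio without them follows in part from that choice. With each 5′ end counted once, the ratio was 1.43, against 1.27 at 11 nt, and without the 10 leading pairs of starts it was 1.21, against 1.08 at 11 nt.

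**Figure D5:**
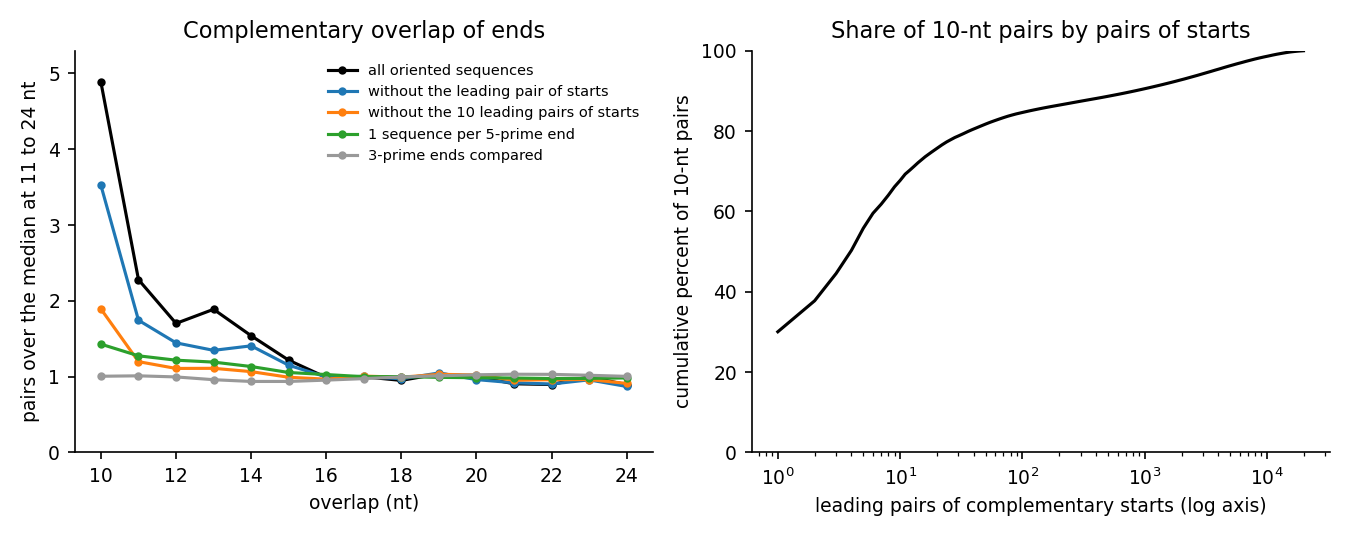
Left: number of complementary pairs at each overlap from 10 to 24 nt, divided by the median at 11 to 24 nt, for 5 sets of oriented sequences. Right: cumulative percent of the 10-nt pairs by the number of leading pairs of complementary starts (log axis). The ratio at 10 nt was 4.88 for all sequences, 1.43 with 1 sequence per 5′ end and 1.01 for 3′ ends, which the orientation rule makes variable. The 10 leading pairs of starts held 67.7% of the pairs.

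Pair 1 joined 1075 sequences that begin with TTCTAGTTGT with 592 that begin with ACAACTAGAA. The first side held 51433 reads over 87 different 5′ ends and the second 9495 reads over 41, so the first side had 5.42 times the reads. The ends of a side share their first 10 nt and differ within positions 11 to 24, so they are variants in bases. The first side begins with T, that is U, and the second side holds A at position 10, which the pairing fixes. The commonest 5′ end of a side held 49.1% of the reads on the first side and 24.9% on the second. The first side was mostly 29 to 31 nt long (84.8% of reads), the second less so (51.1%). Both sides were listed in either direction, with 52.6% and 49.7% of the sequences reversed. In positions 11 to 24 the commonest base took a median of 94.9% of the reads on the first side and 96.5% on the second. With each 5′ end of a side counted once, these medians were 80.5% and 87.8%.

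The other 4 of the 5 leading pairs were smaller. Pair 2 held 7.72% of the pairs, from 478 sequences (6300 reads) against 342 (2533 reads). Pair 3 held 6.81%, from 464 sequences (5558 reads) against 311 (2506 reads). Pair 4 held 5.75%, from 389 sequences (4654 reads) against 313 (3928 reads), and of the 5 it had the most even reads, with a ratio of 1.18 between its sides. In pairs 3 and 4 both sides begin with T and hold A at position 10, which the pairing fixes. Pair 5 held 5.50%, from 574 sequences (13625 reads) against 203 (2195 reads), a ratio of 6.21. Its first side was mostly 26 to 28 nt long (76.7% of reads).

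Several of the 10 leading pairs of starts shared stretches of sequence. Pairs were joined where their sequences shared at least 20 words of 14 nt on either strand. Pairs 1, 2, 4 and 8 formed a set that held 45.7% of all 10-nt pairs, with 3622 sequences and 81273 reads. Pairs 5 and 9 formed a set with 7.62% of the pairs and 44507 reads, and pairs 6, 7 and 10 a set with 7.57% and 26462 reads. The last set is a chain, as pairs 6 and 10 shared 0 words and are joined through pair 7, with 87 and 84 words. Pair 3 stood alone. Words of both sides were used, so a shared word places 2 pairs on overlapping stretches of like sequence. No genome or element sequence was used, and the element or gene behind each set was not analysed here.

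One of these sets carries a known motif. The letters GTTCGANTC, searched on both strands, are the core of the box B promoter element inside tRNA genes and the T loop of tRNAs, and tRNA-derived SINEs carry it too. They were found in 0.405% of all oriented sequences of 26 to 32 nt, in 71.9% of the sequences of pair 5 and in 19.2% of those of pair 9. In the other 8 of the 10 leading pairs no sequence held them. By reads the share was 0.370% of all oriented reads, 82.7% in pair 5 and 2.09% in pair 9. The first start of pair 5 already spells all but the first letter of the motif on its other strand, and the second start of pair 9 all but its last 2 letters, so in both pairs the choice of start sets most of the match. The match is one of letters only.

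The sequences of the 10 leading pairs of starts differed from the other oriented sequences in length and abundance. They were 7209 sequences (1.41% of the oriented sequences) with 160306 reads (0.907% of the oriented reads), over 650 5′ ends. Of their reads 40.4% were 26 to 28 nt long, against 18.2% of other oriented reads, and 56.3% were 29 to 31 nt long, against 74.7%. They had 22.2 reads per sequence, against 34.7. Of their sequences 49.6% had been listed reversed. Of their 154 ends of at least 100 reads, 49 (31.8%) had at least 10% of their reads listed each way, against 0.887% of the other ends. The starts were chosen by their numbers of distinct sequences. That choice can lower the reads per sequence and raise the share of ends listed each way. With 1 library these are differences between sequences of 1 sample and were not tested.

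Sequences running across the overlap of a pair were also present. A window of 20 nt, made of the 10-nt overlap and 5 nt on either side as given by the leading sequences of the 2 sides, was searched on both strands over all listed sequences of the library. For pair 1 it was found in 56 sequences with 142 reads, against 51433 and 9495 reads on its sides. It was found in 216 sequences for pair 2, 30 for pair 3, 321 for pair 4 and 86 for pair 5, with 907, 144, 1812 and 313 reads. Of the 10 leading pairs, pair 9 had the most, 788 sequences with 25449 reads. The sides need only a 10-nt start among oriented sequences, so reads of the window and of the sides were not counted on the same scale. Counted with 1 sequence per 5′ end, there were 62609 pairs in all, of which the leading pair of starts held 5.70% and the 10 leading pairs 21.3%. The leading pair of starts was the same in this count, and 6 of the 10 leading pairs were shared.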

How the data were processed

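The small RNA table of horse testis, as deposited by the authors, holds a raw read count per distinct sequence. Bowtie, without a version, and the build CanFam3.1 are named for this horse sample, per the submitters' processing notes. The trimming, the length selection and the filter that fixed how sequences are listed are not described in the sources used here. The mRNA tables were not used here.

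The library lists 35830283 reads of 24 to 32 nt, which is not its full depth. Identical sequences were summed, and 17284 sequences stood on 2 rows (1.44% of reads). Sequences of 26 to 32 nt were linked and oriented by shared first or last 24 nt (80% of at least 10 variant reads), and 5′ ends of at least 100 reads were described. Pairs were counted at overlaps of 10 to 24 nt, each judged on 10 nt. Some shares of reads, of ends and of distinct sequences carry exact 95% binomial intervals. The sequences named are the 3 most read as listed, the 10 ends with most reads and the 5 pairs of starts with most pairs. Ends named beyond these, and the motif, were chosen after their values were seen. Of the ends recognised as known RNAs, 2 are not reported here. Members and lists were chosen with earlier results of these data known. Python 3.11.15 with numpy 2.4.6, pandas 2.3.3 and scipy 1.17.1 was used. The orientation, first-base and overlap counts were tested on simulated data, made of random sequences whose variants differed at the 3′ end only. Variants at both ends and sets of like sequences were not simulated, so the test does not cover them.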

Additional observations from a re-analysis of the deposited data

How the results depend on the processing

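Of 47 values recomputed, 44 moved and 3 did not (the median of 6 sequences with 95% of variant reads or at least 50 of them required, and A at position 10 with 95%). Small shifts are counted as moved, some of them below the digits printed here. Examples are the share nested with 24 to 32 nt and the share of U with 22 nt shared. With 24 to 32 nt, the 1000 most read sequences held 28.2% of reads, 50.9% of reads were oriented, an end had a median of 7 sequences, the most read length held 59.9%, 99.3% of reads were nested in their template, U stood first in 77.3%, A at position 10 of sequences without first-base U was 33.5%, the overlap ratio was 4.53, and the leading pair and the 10 leading pairs of starts held 29.1% and 64.96% of the pairs. With 95% of variant reads required on 1 end, these were 25.5% oriented, 58.6% at the most read length, 99.6% nested, 82.8% U, a ratio of 6.61, 21.9% and 71.9%. With at least 50 variant reads they were 46.3% oriented, 60.6%, 99.3% nested, 77.5% U, 32.8% A at position 10, a ratio of 5.66, 32.9% and 73.8%. With 22 nt shared in place of 24, 51.6% was oriented, U was 77.1%, A at position 10 was 34.3% and the ratio 5.47. With sequences of at least 2 reads, the median was 5 sequences, A at position 10 was 34.8%, the ratio 4.72, and the shares of pairs 34.0% and 68.4%. With 1 sequence per 5′ end, A at position 10 was 30.9%, the ratio 1.43, and the shares of pairs 5.70% and 21.3%. The ratio and both shares thus depend strongly on counting every sequence of an end, variants in length and in bases alike. Without the leading pair of starts the ratio was 3.52.

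Chosen after seeing the data, leaving out the 7 known RNA ends gave 79.6% U and 61.1% at the most read length. Leaving out the 10 leading pairs of starts gave a ratio of 1.89 and 33.2% A at position 10, and with 1 sequence per 5′ end a ratio of 1.21. The causes of these shifts were not tested. The planned search for mature miRNAs was not run, as no table of horse miRNAs was used here. No paired analysis was possible because the horse small RNA group holds 1 library, and no replicate could be left out. Reads that could not be oriented enter none of the values on 5′ ends or pairs.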

Other observations

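The 17284 sequences that stood on 2 rows held 515586 reads. The larger of the 2 rows had a median of 3 reads and the smaller a median of 1, and the smaller rows held 31181 reads in all. No sequence stood on more than 2 rows. Ends of at least 100 reads with at least 10% of their reads listed each way numbered 200 (1.16%), although no sequence of at least 2 reads was itself listed both ways.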
